A study of Mus musculus with 70 samples.

Results

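The 10 genes described here belong to bone morphogenetic protein (BMP) signalling and were measured in mouse medulloblastoma, a tumour of the cerebellum, of the subtype driven by Sonic hedgehog (SHH). They are the ligands Bmp2, Bmp4 and Bmp7, the type I receptors Bmpr1a and Bmpr1b, the signal transducers Smad1 and Smad5, and the target genes Id1, Id2 and Id3. They were picked by symbol, and all 10 were found among 53379 genes in one count table and among 37954 in the other. BMP ligands bind receptor pairs at the cell surface, and the type I receptor phosphorylates Smad1 and Smad5. These then enter the nucleus with Smad4 and switch on genes such as Id1, Id2 and Id3. Id proteins hold basic helix-loop-helix (bHLH) factors away from DNA, and in the cerebellum BMP ligands are known to oppose the SHH-driven division of granule neuron progenitors.

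RNA was sequenced from 70 libraries labelled as tumours of 2 mouse models. In the first, Math1-Cre, active in granule neuron progenitors, turned on SmoM2, a constantly active form of Smoothened. Of these, 7 tumours were labelled Kcnb2 wild-type and 3 Kcnb2 knockout; Kcnb2 encodes a potassium channel subunit. In the second, every tumour carried a Ptch1 allele, the SB100 transposase and Cre both placed under nestin in the labels, a Rosa26 lox-stop-lox PBERT2 transposase and the Lazy Piggy transposon. Of those, 29 were labelled as given tamoxifen, which activates PBERT2, and 30 as not given it. The labels give no age, no zygosity and no statement that each tumour is a separate mouse, so p-values measure the spread between libraries. Library totals ran from 23923453 to 39387125 counts in the SmoM2 table and from 5869618 to 8667344 in the Lazy Piggy table.

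Tumour identity and labels were read from marker genes before any comparison. The SHH target Gli1 stood at 90.4 CPM or more in every SmoM2 tumour and at 75.7 CPM or more in every Lazy Piggy tumour with a treatment label (CPM, counts-per-million, scaled by the trimmed mean of M values, TMM). Atoh1, a granule progenitor factor, stood at 64.2 CPM or more and at 31.8 CPM or more in the same libraries. One Lazy Piggy library without a treatment label had 2.55 CPM of Gli1 and no read of Atoh1, which allows up to 0.397 CPM, so its markers go against an SHH tumour, and it entered no comparison. Kcnb2 itself was measured at 10.0 to 13.8 CPM in the knockouts and at 22.0 to 48.8 CPM in 6 of the 7 libraries labelled wild-type. Only 8.39 CPM were read in the library labelled wild-type replicate 3, so its Kcnb2 level goes against its label. Its title carries the ending of the knockout titles, while the name of its count column, like its genotype label, is of the wild-type form. It is counted as labelled below. Counted as a knockout instead, it turned the sign of Bmp7, Bmpr1b and Id3, and the other 7 members kept theirs.

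The promoters of 3 members are shown, as their relations across tumours are described further on. The ligand Bmp4 and the target gene Id3 were positively related there, while the target gene Id2 passed with neither. Each run is the 250 bases before the transcription start, 5′ to 3′, in build GRCm38.p6 from RefSeq. Capitals mark matches on either strand to GGCGCC and to the related GGAGCC, both GC-rich elements that Smad1 and Smad5 can bind, and to GTCTG, which contains the Smad-binding core. On the other strand the second reads GGCTCC and the third reads CAGAC. The matches in capitals do not overlap each other.
Id3 (chr4:136143572-136143821, plus strand): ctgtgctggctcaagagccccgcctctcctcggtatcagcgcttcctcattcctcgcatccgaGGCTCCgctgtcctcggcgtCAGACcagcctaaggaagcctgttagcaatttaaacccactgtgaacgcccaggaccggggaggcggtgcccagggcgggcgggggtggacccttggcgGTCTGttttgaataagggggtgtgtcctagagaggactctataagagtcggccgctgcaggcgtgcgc
Id2 (chr12:25096093-25096342, minus strand): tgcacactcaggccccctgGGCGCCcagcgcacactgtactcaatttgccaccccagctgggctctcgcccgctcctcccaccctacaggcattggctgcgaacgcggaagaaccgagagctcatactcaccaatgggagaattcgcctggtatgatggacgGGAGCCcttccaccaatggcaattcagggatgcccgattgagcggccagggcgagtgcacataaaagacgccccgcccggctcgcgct
Bmp4 (chr14:46390670-46390919, minus strand): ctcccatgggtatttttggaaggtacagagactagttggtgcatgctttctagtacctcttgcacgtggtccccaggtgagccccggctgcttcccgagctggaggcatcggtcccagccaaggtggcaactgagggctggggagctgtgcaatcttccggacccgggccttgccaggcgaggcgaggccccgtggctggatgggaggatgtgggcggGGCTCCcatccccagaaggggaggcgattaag
The Id3 window held 2 matches to GTCTG and 1 to GGAGCC, the Id2 window 1 to GGCGCC and 1 to GGAGCC, and the Bmp4 window 1 to GGAGCC. Of 32851 promoter windows of the same length, 42.2% held GTCTG, 26.0% GGAGCC and 9.59% GGCGCC on either strand, so each of these letter strings is common. The E-box CANNTG, the site of the bHLH factors that Id proteins hold back, occurred 3 times in the Bmp4 window, 1 time in the Id2 window and not in the Id3 window, against 66.2% of all windows with at least 1. A match is a run of letters and not a measured site. Promoters of 7 of the 10 members were in the RefSeq table, and Id1, Bmp2 and Bmp7 were missing from it.

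Id2 had the highest and Bmp2 the lowest level of the members in all 4 groups. Per kilobase of exon, Id2 was highest in the SmoM2 wild-type tumours at 49.5 ± 10.5 CPM per kilobase (SD, n = 7), and its range did not overlap that of the next gene. Smad5 and Bmpr1a followed at 24.3 ± 3.04 and 24.2 ± 2.80, then Id3 at 19.6 ± 7.38, Id1 at 13.2 ± 3.48 and Smad1 at 9.97 ± 0.669 CPM per kilobase. From Smad5 down to Smad1 the range of each gene overlapped that of its neighbour in the order. Bmpr1b, the second type I receptor, and the ligands Bmp4 and Bmp7 lay lower, at 2.74 ± 0.774, 1.81 ± 1.41 and 1.70 ± 0.303 CPM per kilobase, and Bmp2 was lowest at 0.198 ± 0.0828. In the 30 Lazy Piggy tumours without tamoxifen Id2 again led at 63.3 ± 22.8 CPM per kilobase (SD), Bmpr1a was next at 27.4 ± 3.55, and Bmp2 was last at 0.121 ± 0.0742.

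The members were then set side by side on the CPM scale in the 2 models. Bmpr1a averaged 153 ± 17.8 CPM in SmoM2 wild-type tumours (SD, n = 7) and 174 ± 22.6 CPM in Lazy Piggy tumours without tamoxifen (SD, n = 30). Smad1 averaged 62.4 ± 4.19 and 74.0 ± 11.6 CPM, Id2 121 ± 25.6 and 154 ± 55.7 CPM, Id1 15.3 ± 4.04 and 20.3 ± 7.93 CPM and Bmp7 6.85 ± 1.22 and 6.56 ± 3.42 CPM. The means of Bmp7 and of the other 5 members were higher in the SmoM2 tumours. Bmp4 averaged 4.08 ± 3.18 CPM in the SmoM2 and 0.656 ± 0.442 CPM in the Lazy Piggy tumours, Bmpr1b 16.3 ± 4.62 and 7.92 ± 3.54 CPM, and Id3 35.2 ± 13.2 and 18.0 ± 5.10 CPM. Smad5 averaged 180 ± 22.6 and 112 ± 42.3 CPM, and Bmp2 0.702 ± 0.294 and 0.429 ± 0.264 CPM. The ranges of the 2 groups overlapped for all 10 members. The tables were counted and deposited apart, so the model and the table cannot be told apart, and no test was made.

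**Figure D1:**
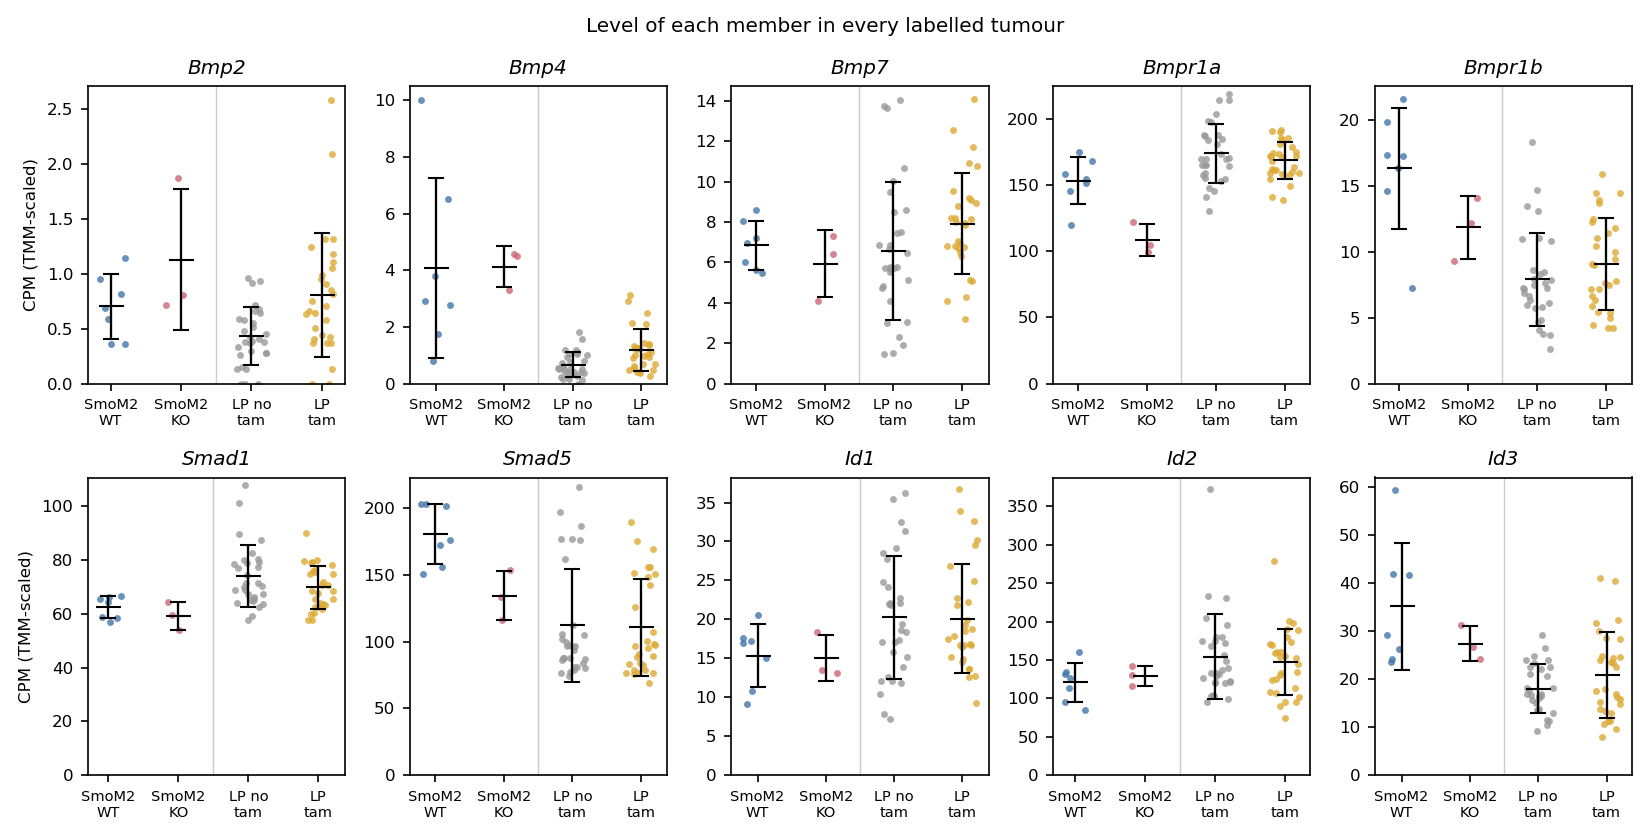
Points show TMM-scaled CPM (y axis, from 0, scaled for each gene) in each tumour of the 4 labelled groups (x axis; WT, wild-type; KO, knockout; LP, Lazy Piggy; tam, tamoxifen), with the group mean and SD as black bars. The 3 knockout values of Bmpr1a, 99.4 to 122 CPM, lie at the low edge of the wild-type values, 120 to 175 CPM, and Smad5 in the Lazy Piggy tumours forms a lower crowd and a smaller upper one.

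The first comparison asked how the members differ between Kcnb2 knockout and wild-type SmoM2 tumours. None of the 10 passed an adjusted p of 0.05 in edgeR's quasi-likelihood test, and neither did any other of the 19864 genes tested (0.0% called). At an unadjusted p under 0.05, 2 of 10 members stood lower, Bmpr1a and Smad5, and none higher. Of all 19864 genes, 793 (3.99%) stood lower at that level and 1683 (8.47%) differed in either direction. DESeq2 called 8 genes (0.0404%), none of them a member. The median log2 fold change of the members was -0.10, with 3 positive and 7 negative, and that of all genes tested was 0.00172.

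Among the ligands, Bmp2 had 1.87, 0.810 and 0.712 CPM in knockout replicates 1 to 3. The wild-type replicates 1 to 7 had 0.362, 0.356, 0.955, 1.14, 0.692, 0.591 and 0.817 CPM of Bmp2. Knockout replicate 1 was above every wild-type tumour and the other two lay among them; the log2 fold change was 1.03 ± 0.52 (SE; edgeR adjusted p = 0.566), from only 12 to 63 reads of Bmp2 per library. Bmp4, the ligand that patterns dorsal neural tissue, had 3.29, 4.50 and 4.58 CPM in the knockouts, inside the wild-type range of 0.807 to 10.0 CPM. Bmp7 had 6.41, 4.11 and 7.29 CPM in the knockouts against 5.46 to 8.62 CPM. Their log2 fold changes were 0.40 ± 0.72 for Bmp4 and -0.09 ± 0.27 for Bmp7 (SE; edgeR adjusted p = 0.860 and 0.917).

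Among the receptors, Bmpr1a had 99.4, 105 and 122 CPM in knockout replicates 1 to 3. The wild-type replicates 1 to 7 had 120, 152, 145, 159, 168, 175 and 155 CPM of Bmpr1a. Knockout titles share their form, a leading number, with wild-type replicates 1 to 3. Those wild-types had 120 to 152 CPM, below the 155 to 175 CPM of the other wild-types. The genotypes touched only where knockout replicate 3 exceeded wild-type replicate 1. With the title form as covariate, the log2 fold change of Bmpr1a was -0.34 ± 0.12 (SE; 95% interval -0.60 to -0.08; p = 0.0153, adjusted p = 0.566 in edgeR). Without that covariate the log2 fold change of Bmpr1a was -0.50. Bmpr1b had 12.2, 9.32 and 14.1 CPM in the knockouts, within the wild-type range of 7.26 to 21.6 CPM, and a log2 fold change of -0.22 ± 0.31 (SE).

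Of the transducers, Smad5 had 116, 133 and 154 CPM in the knockouts. The wild-type replicates 1 to 7 had 151, 203, 176, 156, 201, 203 and 172 CPM of Smad5. Again only knockout replicate 3 reached into the wild-type range, past replicate 1. The log2 fold change of Smad5 was -0.38 ± 0.15 (SE; 95% interval -0.71 to -0.05; p = 0.0264, adjusted p = 0.566 in edgeR). Smad1 had 53.9, 59.5 and 64.2 CPM in the knockouts and 56.8 to 66.4 CPM in the wild-types, and its log2 fold change of -0.07 ± 0.12 (SE) had a 95% interval from -0.32 to 0.19. For no member did the 3 knockouts lie wholly above or below the 7 wild-types, which happened for 4.25% of genes tested. Against the number-titled wild-types alone no member separated either, beside 15.5% of genes tested.

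The Id genes did not separate the genotypes. Id1 had 13.5, 13.1 and 18.4 CPM in the knockouts, within 9.07 to 20.5 CPM in the wild-types. Id2 had 116, 130 and 142 CPM against 84.4 to 161 CPM. Id3 had 26.6, 24.3 and 31.3 CPM against 23.5 to 59.5 CPM, where wild-type replicate 7 was highest. Their log2 fold changes were -0.12 ± 0.30 for Id1, 0.25 ± 0.21 for Id2 and -0.23 ± 0.35 for Id3 (SE), with edgeR adjusted p from 0.676 to 0.903. With 3 knockouts the intervals were wide, that of Id3 running from -0.998 to 0.54.

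Of 72 other genes of the pathway, 60 could be tested and none passed (0.0% of all genes). Of the 60, 1 stood higher and 4 lower at an unadjusted p under 0.05 in edgeR, beside 4.48% of all genes higher and 3.99% lower. The 3 with the smallest p were all negative. Tcf12, a bHLH partner of the Id proteins, had 183, 197 and 212 CPM in the knockouts, below the 231 to 292 CPM of the wild-types (log2 fold change -0.39 ± 0.12, SE, edgeR adjusted p = 0.566). Rgmb, a BMP co-receptor, had 47.0, 47.4 and 64.6 CPM, below 65.9 to 105 CPM (-0.56 ± 0.19 on the log2 scale). Smad4, the partner of Smad1 and Smad5, had 115, 129 and 153 CPM against 147 to 194 CPM (-0.36 ± 0.13 on the log2 scale).

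Other cell types moved beside these values, without a call in edgeR. All 10 oligodendrocyte and all 10 Purkinje and interneuron markers had a positive knockout fold change. Their medians were 1.75 and 1.55 on the log2 scale, but none of them had an unadjusted p under 0.05 in edgeR. All 12 cell cycle genes had a negative fold change, with a median of -0.47. Of the 12 cell cycle genes, 7 were lower at an unadjusted p under 0.05 in edgeR, beside 3.99% of all genes. Summed oligodendrocyte markers ran from 939 to 4710 CPM in the knockouts and from 153 to 3252 CPM in the wild-types, and summed cell cycle genes from 1896 to 3052 and from 2483 to 3510 CPM. Pericyte and fibroblast markers did not overlap between the genotypes: they summed to 415 to 597 CPM in the knockouts and 654 to 776 CPM in the wild-types, with 11 of 12 negative and 5 of them at an unadjusted p under 0.05, beside 3.99% of all genes lower at that level. Choroid plexus markers were negative in 5 of 5 tested and microglia and macrophage markers in 11 of 12. In each of these lists 1 marker was lower at an unadjusted p under 0.05 in edgeR. Summed choroid plexus markers had medians of 105 CPM in the knockouts and 107 CPM in the wild-types. They reached 148 and 607 CPM, so the groups differed mainly at the top of the wild-type range. Granule neuron differentiation genes had a median of 1.00 on the log2 scale with 8 of 12 positive. Of these 12, 3 were higher at an unadjusted p under 0.05 in edgeR, beside 4.48% of all genes. Astrocyte, oligodendrocyte precursor and endothelial markers had medians of 0.18, 0.03 and -0.16, and SHH tumour markers of -0.23. No marker of these lists was at 0 in either group. By the Y genes, none of the 3 knockouts and 3 of the 7 wild-types were male. The part of these differences in the values of Bmpr1a and Smad5 was not tested. In bulk samples, fewer cells of a type and less RNA per cell cannot be told apart.

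**Figure D2:**
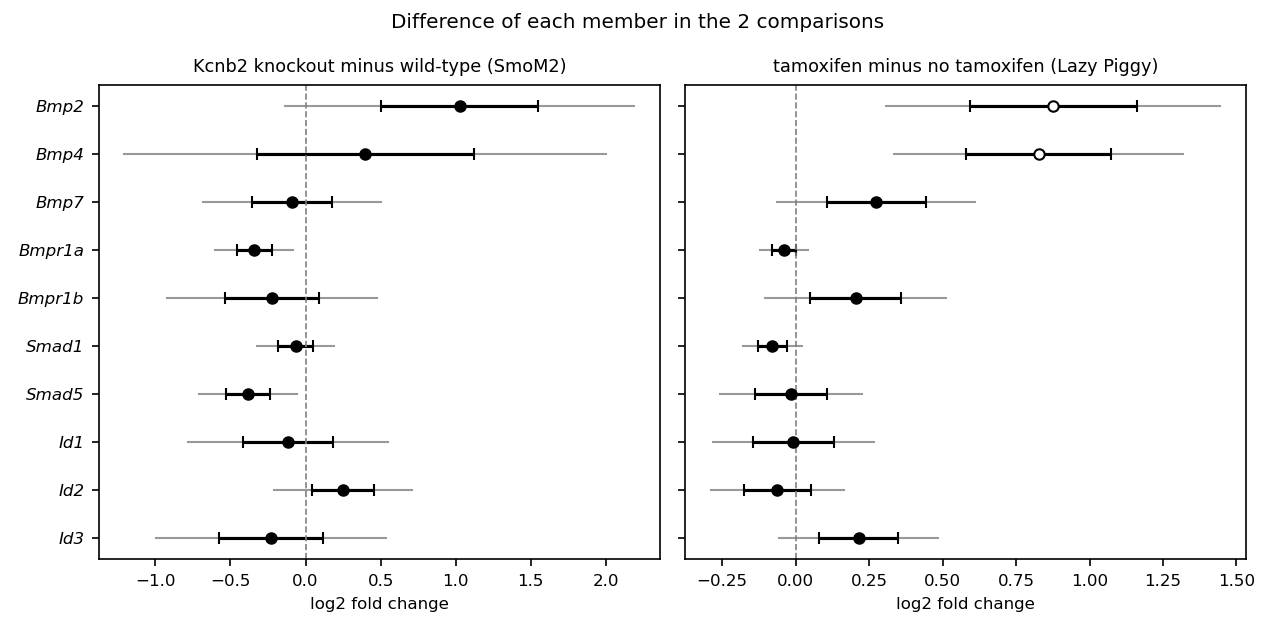
Log2 fold change (x axis, a different span in each panel) of each member (y axis) in the knockout comparison (left) and the tamoxifen comparison (right); black bars are 1 SE, grey lines the 95% interval, and open circles come from the fit without a filter on low counts. On the left Bmpr1a at -0.34 and Smad5 at -0.38 have intervals below 0, and on the right Bmp2 at 0.88 and Bmp4 at 0.83 have intervals above 0.

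The second comparison asked how tumours of the tamoxifen group differ from those without tamoxifen. The filter on low counts kept 8 of the 10 members, and none of the 8 passed in edgeR, beside 501 of 13735 genes (3.65%), of which 420 were higher (3.06%) and 81 lower. None of the 8 had an unadjusted p under 0.05, beside 19.5% of genes tested. The members kept had a median log2 fold change of -0.01, beside -0.01 over all genes tested, with 3 positive and 5 negative.

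Bmp2 and Bmp4 were dropped by the filter, at a median of 3 to 8 reads per library in the 2 groups. Bmp2 had a lowest, median and highest value of 0, 0.703 and 2.58 CPM with tamoxifen and of 0, 0.397 and 0.963 CPM without. It was at 0 reads in 2 and 3 libraries, and a count of 0 allows up to 0.511 CPM at these depths. Bmp4 had 0.253, 1.02 and 3.11 CPM with tamoxifen and 0, 0.520 and 1.83 CPM without. The groups overlapped widely for both ligands, while the highest values were in the tamoxifen group. In a fit without the filter Bmp2 had a log2 fold change of 0.88 ± 0.28 (SE; p = 0.00306, adjusted p = 0.0825 in edgeR) and Bmp4 of 0.83 ± 0.25 (p = 0.00136, adjusted p = 0.0549), where 2.22% of 26349 genes were called and 15.7% had p under 0.05.

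The Bmp4 call turned on the setting. With the period of the title date as a covariate, an alternative added after the data were seen, Bmp4 rose by 0.85 on the log2 scale (adjusted p = 0.0448 in edgeR, 2.43% of genes called). Without tamoxifen replicate 14, in the fit without that covariate, Bmp4 kept its log2 fold change of 0.83 and had an adjusted p of 0.102. Within the earlier titles (14 and 10 tumours) Bmp4 had a log2 fold change of 0.40 and within the later (15 and 20 tumours) 1.14, with adjusted p of 0.683 and 0.194 in edgeR. The difference between the periods, 0.74 ± 0.50 (SE), had p = 0.141. Bmp2 had 0.79 in the earlier and 0.96 in the later titles, and did not pass in any fit.

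The third ligand, Bmp7, known from kidney and eye development, had 3.20, 7.97 and 14.1 CPM with tamoxifen and 1.46, 5.76 and 14.0 CPM without (lowest, median, highest). Both groups reached the same height, and the lowest values lay without tamoxifen. Its log2 fold change was 0.27 ± 0.17 (SE; edgeR adjusted p = 0.371). The receptor Bmpr1a had 139, 171 and 192 CPM with and 130, 170 and 219 CPM without tamoxifen, and its log2 fold change of -0.04 ± 0.04 had a 95% interval from -0.12 to 0.04. Bmpr1b had 4.22, 9.01 and 15.9 CPM with and 2.61, 7.27 and 18.4 CPM without, and 0.20 ± 0.15 on the log2 scale.

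The transducers lay close in both groups. Smad1 had 57.7, 68.5 and 90.0 CPM with tamoxifen and 57.6, 70.8 and 108 CPM without (log2 fold change -0.08 ± 0.05, SE; 95% interval -0.18 to 0.02). Smad5 had 68.8, 96.6 and 190 CPM with and 74.0, 96.3 and 216 CPM without (-0.02 ± 0.12 on the log2 scale; 95% interval -0.26 to 0.23). Of the Id genes, Id1 had 9.22, 17.8 and 36.7 CPM with and 7.16, 19.0 and 36.2 CPM without (-0.01 ± 0.14 on the log2 scale). Id2 had 74.1, 152 and 279 CPM with and 94.5, 135 and 373 CPM without (-0.06 ± 0.11 on the log2 scale). Id3 had 7.86, 18.0 and 41.0 CPM with and 9.18, 16.9 and 29.2 CPM without (0.21 ± 0.14 on the log2 scale).

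For Id3 the 2 title periods pointed apart, with a log2 fold change of -0.07 in the earlier and 0.43 in the later titles. The difference of 0.51 ± 0.27 (SE) had an unadjusted p of 0.0617 and an adjusted p of 0.9997 in edgeR. No gene of 14450 passed this test of the difference (0.0% called, 3.47% at an unadjusted p under 0.05, 502 genes).

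Of the 72 other pathway genes 49 could be tested with tamoxifen, and 2 passed, both higher, beside 3.06% of all genes called higher. Nbl1, a secreted BMP antagonist, had 10.0, 24.9 and 65.5 CPM with tamoxifen and 8.81, 15.0 and 37.4 CPM without (lowest, median, highest). Nbl1 rose by 0.68 ± 0.15 on the log2 scale (SE; adjusted p = 0.0119 in edgeR). Id4, the fourth Id gene, had 1.29, 17.3 and 83.9 CPM with tamoxifen and 0.419, 4.42 and 37.5 CPM without. Id4 rose by 1.44 ± 0.39 on the log2 scale (SE; adjusted p = 0.0271 in edgeR). The 95% intervals of its relatives Id1, Id2 and Id3 all included 0, and the difference between Id4 and them was not tested.

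The Id4 call was lost without tamoxifen replicate 14 (1.27, adjusted p = 0.0734 in edgeR) and without tamoxifen replicate 17 (1.33, adjusted p = 0.0507). That of Nbl1 held in all 59 fits with 1 tumour left out, at an adjusted p of up to 0.0266. Within the earlier and the later titles Id4 had 1.37 and 1.5 and Nbl1 0.79 and 0.67 on the log2 scale, and neither passed there. At an unadjusted p under 0.05, 8 of the 49 pathway genes were higher and 4 lower, beside 11.6% of all genes higher and 7.91% lower, so the count over the pathway is near the background. Of the 8, 2 were among 3 tested ligands, 3 among 12 antagonists, 2 among 4 other targets and 1 among 11 Smads and regulators. Of the 4, 3 were among 11 bHLH partners and 1 among 11 Smads and regulators. These lists are too short to set against those shares.

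Markers of some other cells also rose with tamoxifen. Of the astrocyte and Bergmann glia markers 7 of 12 passed in edgeR, all higher, beside 3.06% of all genes called higher. So did 8 of 9 oligodendrocyte markers tested and 8 of 10 Purkinje and interneuron markers. Of the microglia and macrophage markers 1 of 12 passed, higher. No oligodendrocyte precursor, endothelial, pericyte and fibroblast, choroid plexus, granule neuron differentiation or cell cycle gene passed. All 12 SHH tumour markers had a negative fold change, and 1 passed. Summed astrocyte markers ran from 1632 to 4664 CPM with a median of 2701 CPM in the tamoxifen group, and from 928 to 4504 CPM with a median of 1941 CPM without. Summed oligodendrocyte markers had medians of 400.0 and 161 CPM and reached 4047 and 755 CPM. No marker of these lists was at 0 in either group, and their part in the values of Id4, Nbl1, Bmp2 and Bmp4 was not tested.

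Tamoxifen replicate 14 stood apart in the members as well. It had the lowest values of the tamoxifen group for Bmpr1a (139 CPM), Smad5 (68.8 CPM), Id1 (9.22 CPM) and Id3 (7.86 CPM) and the highest for Id2 (279 CPM) and Id4 (83.9 CPM). Its Gli1 and Atoh1 levels, 75.7 and 31.8 CPM, were also the lowest of the group. Without it 138 genes passed in place of 501, and still none of the 8 members.

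Across the 59 Lazy Piggy tumours, the members differed in how much they varied. Bmpr1a and Smad1 varied least, with an SD of log2 CPM of 0.16 and 0.19, smaller than in all but 3.12% and 10.3% of the genes tested. Id2, Smad5, Id3 and Id1 had SDs of 0.43, 0.45, 0.53 and 0.54, and Bmpr1b and Bmp7 of 0.59 and 0.69. Bmp2 and Bmp4, at 0.75 and 0.77, varied most, and counting error is part of their spread, as they had a median of at most 8 reads. No tumour was an outlier for any member by the margin of 2 on the log2 scale and 5 scaled median absolute deviations.

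Members were then related to each other over the 59 tumours, after centring log2 CPM within each treatment group. Leaving out Smad5, whose tumours fell into 2 crowds, 6 of 36 pairs passed at an adjusted p of 0.05 (permutation within groups, two-sided, adjusted over all 45 pairs), 5 positive and 1 negative. Bmp4 and Id3 had r = 0.51 and rho = 0.48 (permutation p = 5.0e-05 and 0.000160, adjusted 0.00225 and 0.00720). Without the 2 tumours farthest in Bmp4 r was 0.44, with r = 0.64 in the tamoxifen group, 0.36 in the other, and 0.52 and 0.51 in the earlier and later titles. So the ligand and the target were positively related in each group and period.

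The target genes Id1 and Id3 had r = 0.45 and rho = 0.41 (permutation p = 0.000160 and 0.00105, adjusted 0.00360 and 0.0118), with r = 0.40 without the 2 farthest tumours. Within the tamoxifen group r was 0.39 and without tamoxifen 0.56, and within the earlier and later titles it was 0.50 and 0.46. Bmp4 and Id1 had r = 0.39 and rho = 0.36 (permutation p = 0.00232 and 0.00570, adjusted 0.0238 and 0.0441), with r = 0.37 without the 2 farthest tumours, 0.44 and 0.36 in the tamoxifen groups and 0.58 and 0.35 in the periods. Id2 did not follow: its r was 0.05 with Id3, -0.27 with Id1 and -0.07 with Bmp4, and none of these passed.

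The transducer Smad1 ran the other way from Bmp4, with r = -0.39 and rho = -0.43 (permutation p = 0.00219 and 0.000810, adjusted 0.0238 and 0.0118). Without the 2 farthest tumours r was -0.42, and within groups and periods it was between -0.25 and -0.49. Bmp7 and Id3 had r = 0.35 and rho = 0.42 (permutation p = 0.00264 and 0.000790, adjusted 0.0238 and 0.0118), with r = 0.48 without the 2 farthest tumours and 0.39 in both treatment groups. This relation did not hold within the earlier titles, where r was -0.08, beside 0.57 in the later. Bmp2 and Bmp7 passed narrowly, with r = 0.33 and rho = 0.29 (permutation p = 0.00654 and 0.0280, adjusted 0.0490 and 0.105), with r = 0.38 without the 2 farthest tumours, 0.11 with and 0.53 without tamoxifen and 0.13 and 0.45 in the periods.

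**Figure D3:**
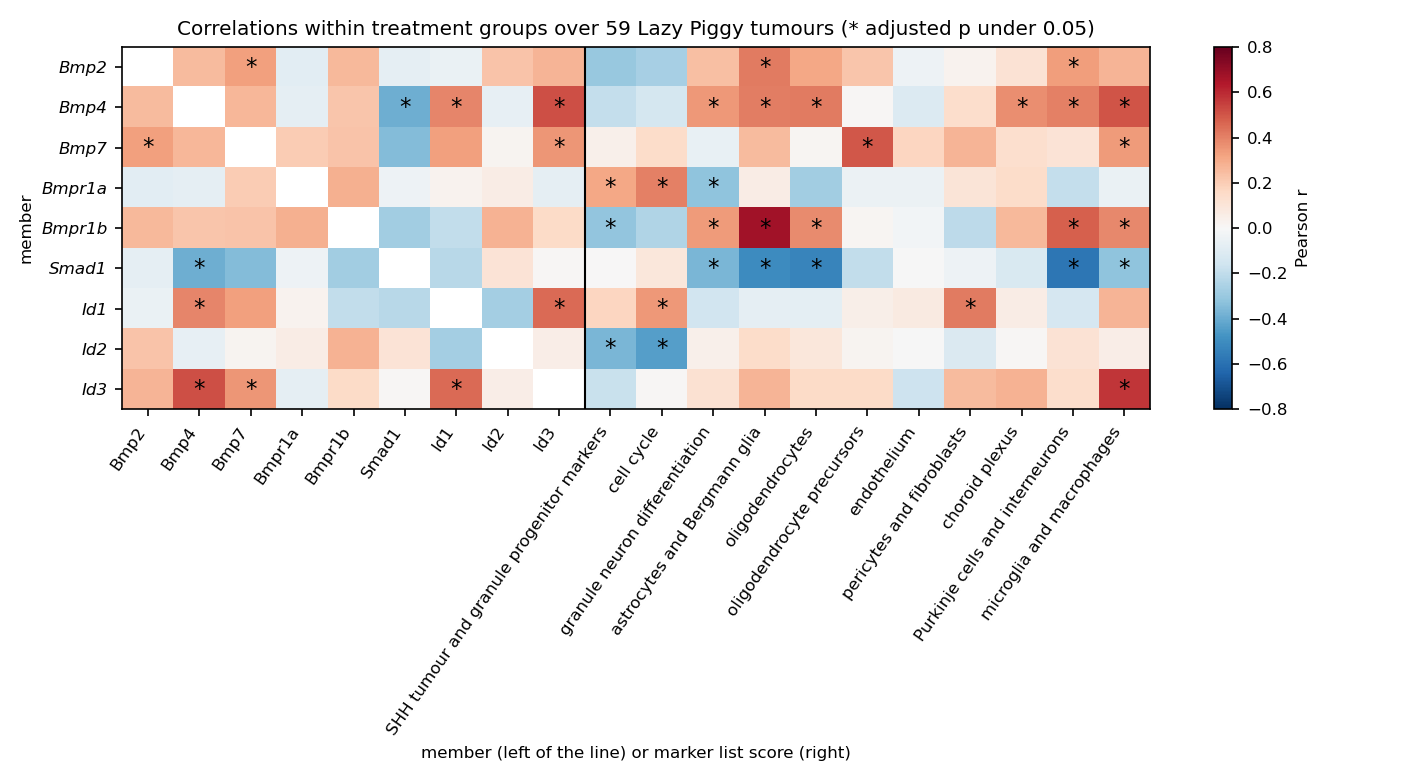
Pearson r (colour) of each of 9 members (y axis) with the other members and with the score of each of 11 marker lists (x axis), over 59 Lazy Piggy tumours centred within treatment group; an asterisk marks an adjusted permutation p under 0.05, and Smad5 is left out. Bmp4, Id1 and Id3 are red with each other, Bmpr1b is reddest with astrocyte markers (r = 0.67), and Smad1 is blue with neuronal and glial markers.

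Marker scores, the mean log2 CPM of a list, moved with several members. Of 99 pairs without Smad5, 29 passed at an adjusted p of 0.05 (over 110 pairs), 20 of them positive. Bmpr1b and the astrocyte and Bergmann glia score had r = 0.67 and rho = 0.63 (permutation p = 1e-05 for both, the smallest that 100000 permutations can give, adjusted 0.000367), with r = 0.58 without the 2 farthest tumours. Their r was 0.75 with tamoxifen, 0.62 without, and 0.69 and 0.66 in the title periods. Bmpr1b also passed with the Purkinje and interneuron (r = 0.48), microglia and macrophage (0.39), oligodendrocyte (0.38) and granule neuron differentiation (0.34) scores. With the SHH tumour and granule progenitor score its r was -0.31, which also passed. In SmoM2 tumours the summed level of the astrocyte and Bergmann glia list had a median of 3059 CPM in the wild-types and 3047 CPM in the knockouts. It ran from 2455 to 6658 CPM in the wild-types and from 2950 to 3442 CPM in the knockouts.

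Smad1 was lower in tumours with more reads of neuronal and glial markers. With the Purkinje and interneuron score it had r = -0.58 and rho = -0.60 (permutation p = 1e-05 for both, adjusted 0.000367), with r = -0.60 without the 2 farthest tumours and between -0.46 and -0.67 in every group and period. With oligodendrocyte and astrocyte scores its r was -0.53 and -0.50. Id3 rose with the microglia and macrophage score (r = 0.57, rho = 0.58, permutation p = 1e-05 for both, adjusted 0.000367), with r = 0.54 without the 2 farthest tumours and between 0.51 and 0.61 in groups and periods. Bmp4 had r = 0.51 with the same score (rho = 0.49, permutation p = 4.0e-05 and 9.0e-05, adjusted 0.000880 and 0.00198), with r = 0.47 without the 2 farthest and between 0.48 and 0.55 in groups and periods. Bmp4 also passed with the oligodendrocyte (r = 0.41), astrocyte (0.41), Purkinje and interneuron (0.40), choroid plexus (0.37) and granule neuron differentiation (0.35) scores. Bmp4 and Id3 both moved with the microglia and macrophage score, and its part in their own relation was not tested.

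Smad5, with its 2 crowds, is given apart. It passed with 2 of the 11 scores. With the endothelium score it had r = -0.38 and rho = -0.41 (permutation p = 0.00304 and 0.00128, adjusted 0.0186 and 0.00741), with r = -0.43 without the 2 farthest tumours, -0.48 with and -0.29 without tamoxifen and -0.47 and -0.40 in the earlier and later titles. With the choroid plexus score it had r = 0.34 and rho = 0.40 (permutation p = 0.00968 and 0.00188, adjusted 0.0394 and 0.00980), with r = 0.28 without the 2 farthest tumours, 0.41 with and 0.29 without tamoxifen and 0.29 and 0.36 in the titles. These values pool both crowds of Smad5.

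Id2 and Id1 were related to the cell cycle score with opposite signs. Id2 and the cell cycle score had r = -0.44 and rho = -0.42 (permutation p = 0.000380 and 0.00119, adjusted 0.00418 and 0.00727), with r = -0.38 without the 2 farthest tumours. It was -0.63 with and -0.16 without tamoxifen, and -0.43 and -0.48 in the periods. Without tamoxifen replicate 14 the r of Id2 and this score was -0.33, with an adjusted permutation p of 0.0493, just under the threshold. Id1 and the cell cycle score had r = 0.35 and rho = 0.28 (permutation p = 0.00353 and 0.0281, adjusted 0.0204 and 0.0726), with r = 0.37 without the 2 farthest tumours and 0.48 and 0.23 in the treatment groups. This did not hold in the earlier titles, where r was -0.02, beside 0.46 in the later, and without tamoxifen replicate 14 its adjusted p was 0.158. Bmpr1a had r = 0.41 and rho = 0.41 with that score (permutation p = 0.000380 and 0.00118, adjusted 0.00418 and 0.00727), with r = 0.40 without the 2 farthest and between 0.34 and 0.53 in groups and periods. All genes of a library share its depth and its mix of cells.

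By the same centred values, the 3 genes most like each member were named among all genes tested, as a description over 59 tumours. For Bmp4 they were Cd74 (r = 0.64), Tent5a (0.60) and H2-Ab1 (0.60), and for Bmp2 Usp53 (0.59), F3 (0.58) and Abcc4 (0.56). For Bmp7 they were Tcn2 (r = 0.67), Timp2 (0.65) and Ifitm2 (0.64). The likest genes of Bmpr1a were Wapl (r = 0.73), Ppp4r3b (0.65) and Prps2 (0.65), and those of Bmpr1b Glud1 (0.76), S1pr1 (0.75) and Gja1 (0.74). For Smad1 they were Rbm18 (r = 0.67), Trim35 (0.64) and Mgat4b (0.64). Id1 was most like ENSMUSG00000073859 (r = 0.64), Tmem176b (0.63) and Rhoc (0.63), Id2 most like Dap (0.72), B4galt5 (0.66) and Mul1 (0.62), and Id3 most like Ifitm3 (0.73), S100a6 (0.69) and Fam129b (0.68).

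The genes most like Smad5 were Simc1 (r = 0.93), Rnf44 (0.89) and Faf2 (0.88), and all 3 lie on chromosome 13, as Smad5 does. Of the likest genes of the other 9 members, 1 for Bmpr1a and 1 for Bmpr1b lay on the member's own chromosome. The 40 tested genes nearest to Smad5 in gene order, 20 on each side, had a median r of 0.68 with it, and 26 of the 40 were over 0.5. For the other members the median over their 40 nearest genes was between -0.08 and 0.09, with at most 3 of 40 over 0.5. This was noticed in the data first, and the neighbours were chosen afterwards, so it is given without a test.

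Along chromosome 13 the correlation was uneven. Of 484 tested genes on it, 111 (22.9%) had r over 0.5 with Smad5, while on the other chromosomes the share was at most 2.22%, on chromosome 17. The 40 tested genes just before Smad5 had a median r of 0.73, and the first 40 of the chromosome 0.28. The 25 genes between Smad5 and Ptch1, the SHH receptor gene that names this model, had a median r of 0.52, and Ptch1 itself, 26 genes away, had r = 0.50. Of the 20 genes just past Ptch1 none was over 0.5, with a median r of 0.07, and of all 221 genes past it 1 was, with a median of 0.03. The other genes of the BMP lists tested on that chromosome, Id4 and Bmp6, had r = 0.20 and 0.12. Gene order came from GENCODE M21, an annotation of GRCm38, and no coordinates are given for it.

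**Figure D4:**
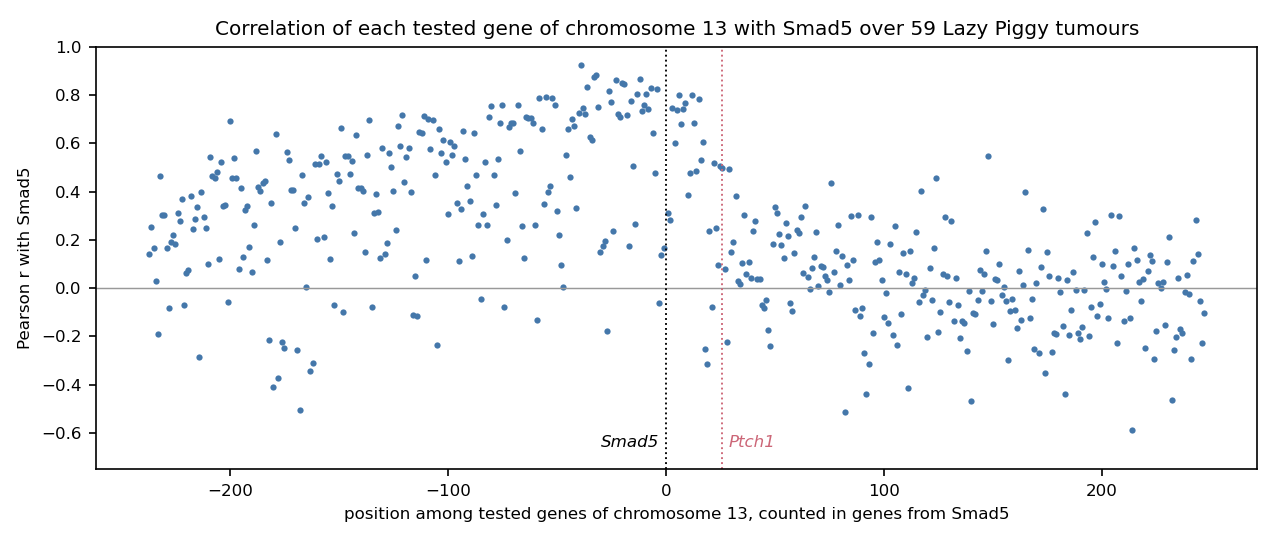
Each point is a tested gene of chromosome 13, at its place in gene order counted from Smad5 (x axis), with its Pearson r with Smad5 over 59 Lazy Piggy tumours, centred within treatment group (y axis); dotted lines mark Smad5 and Ptch1. The highest value, 0.93, is that of Simc1 at position -39, and the genes directly beside Smad5, Tgfbi and Spock1, have 0.16 and 0.31. Past Ptch1 the values scatter around a median of 0.03.

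The level of Smad5 itself fell into 2 crowds. In 43 tumours it was 68.8 to 126 CPM and in 16 it was 143 to 216 CPM. The gap of 0.18 on the log2 scale was the widest between neighbouring tumours for Smad5. The next widest, 0.16, lay just under the tumour at 126 CPM, so that tumour sits between the crowds. Bmp2, Bmp4, Bmp7, Bmpr1b, Id1, Id2 and Id3 had wider gaps, 0.23 to 1.25, but these set apart only 1 to 5 tumours. The upper crowd held 9 tumours with and 7 without tamoxifen, and 6 with earlier titles. The tumours with the 16 highest mean log2 CPM of the 40 neighbours included 15 of these 16. Within the lower crowd Smad5 and that mean had r = -0.16 and rho = -0.22, and within the upper crowd r = -0.03 and rho = 0.06. The r over all 59 tumours pools both crowds, and no such positive relation was seen inside either crowd.

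Both exceptions came from the tamoxifen group. Replicate 14, the tumour with the highest oligodendrocyte (7.13), Purkinje and interneuron (9.05) and granule neuron differentiation scores and the lowest cell cycle score (5.93), had the lowest Smad5 of all 59, 68.8 CPM, with a neighbour mean of 5.27 on the log2 CPM scale, the tenth highest. Replicate 6 had 190 CPM of Smad5, the third highest, with a neighbour mean of 4.98, rank 18. In the SmoM2 wild-type tumours Smad5 ran from 151 to 203 CPM, in the span of the upper crowd, although the tables were counted apart. In the knockout comparison the 38 of these neighbours that were tested had a median log2 fold change of -0.04, with 20 negative, beside -0.38 for Smad5. With tamoxifen the 40 neighbours had a median of 0.07 and 1 passed in edgeR.

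**Figure D5:**
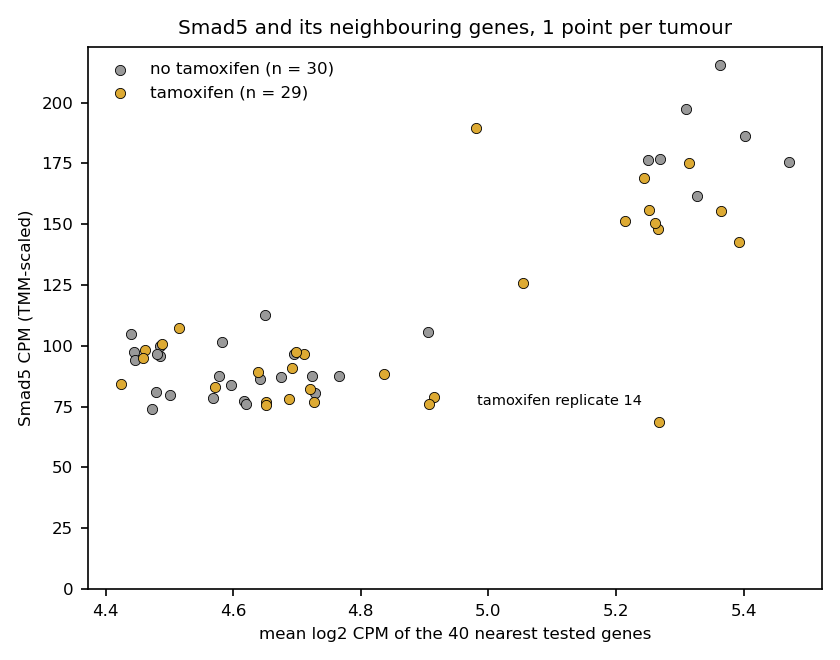
Smad5 in TMM-scaled CPM (y axis, from 0) against the mean log2 CPM of its 40 nearest tested genes (x axis), 1 point for each of 59 Lazy Piggy tumours, coloured by treatment group. Tumours with Smad5 at 143 CPM or more sit to the right, both treatment groups are in both crowds, and tamoxifen replicate 14 stands alone with low Smad5 and high neighbours.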

How the data were processed

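Polyadenylated RNA was sequenced in 70 libraries labelled as tumours. The authors deposited 2 tables of whole-number read counts per gene, 1 per model, not normalized; the submitters' processing notes name the aligner STAR (2.5.4b) and the build mm9. How reads were counted, on which annotation and with what strand setting, is not given in the sources used here. Ensembl identifiers were matched to symbols by GENCODE M21 (53274 and 32882 rows). Rows that name parts of the transposon construct, 0.00120% of the Lazy Piggy reads, were left out. No 2 libraries had counts alike within sampling noise (chi-square per degree of freedom at least 36.0 and 8.89).

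Counts were tested with edgeR 4.0.16 in R 4.3.3 (quasi-likelihood, TMM, filterByExpr with a smallest count of 10, Benjamini-Hochberg over all genes tested, adjusted p of 0.05). The knockout fit used the 10 SmoM2 libraries with the form of the title as covariate, since all 3 knockout titles start with a number, as do 3 wild-type titles. The tamoxifen fit used the 59 labelled Lazy Piggy libraries. Standard errors (SE) were obtained by dividing the log2 fold change by the square root of F. Log2 CPM used a prior count of 2, and correlations used 100000 permutations (scipy 1.17.1). CPM per kilobase divides by the exon length in M21. Sex was read from Y genes, with over 10 CPM marking a male. Tested on simulated counts of 19864 genes, the knockout design found 34% of genes changed 2-fold and 63% of those changed 4-fold (0 false of 97 calls). For the tamoxifen design, with 13735 genes, these shares were 80% at 1.5-fold and 97% at 2-fold (13 false of 190). Changes were planted only in genes above a smallest mean count. The shares therefore do not cover genes as low as Bmp2 and Bmp4 in the Lazy Piggy libraries.

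The members, pathway lists and marker lists were chosen with earlier results of these data known. The named genes are the members, pathway genes past the threshold (or the 3 with the smallest p where none passed), the 3 genes most like each member, and Kcnb2. Alternatives covered DESeq2 1.42.0, RLE size factors, no filter, sex, title form and period as covariates, the doubtful library left out or counted as a knockout, and each library left out. The depth limits what can be seen: 3 reads equal 0.0762 to 0.125 CPM in the SmoM2 and 0.346 to 0.511 CPM in the Lazy Piggy libraries, for counting error only.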

Additional observations from a re-analysis of the deposited data

Results flagged for a closer look

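The Lazy Piggy library without a treatment label held more reads of 2 members than any tumour without tamoxifen. Bmp2 was at 7.80 CPM, from 49 reads, beside at most 0.963 CPM in those 30 tumours and at most 2.58 CPM with tamoxifen. Bmpr1b was at 39.3 CPM, from 247 reads, beside at most 18.4 CPM without tamoxifen. This library also had 2.55 CPM of Gli1 and no read of Atoh1, and no comparison used it. A check for a lone highest or lowest sample (Dixon's ratio, for groups of 4 to 10) was made in the 7 wild-types only, and it singled out no library for any of the 10 members.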

How the results depend on the processing

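No paired analysis was possible because replicate numbers were given in accession order and pair nothing. In the knockout comparison no member passed under any setting, and DESeq2 called 8 genes in place of 0. Bmpr1a ran from -0.50 to -0.21 and Smad5 from -0.49 to -0.28 on the log2 scale over all settings. Signs turned for Bmp4 without the title form (-0.00185), and for Bmp7 (0.23), Bmpr1b (0.11) and Id3 (0.16) with wild-type replicate 3 counted as a knockout. Leaving out 1 library gave -0.26 to 0.12 for Bmp7. With tamoxifen, 0 genes passed within the earlier titles, 2 within the later and 769 in DESeq2, in place of 501. Leaving out 1 tumour gave 138 to 783 genes: 138, 259, 287 and 314 without tamoxifen replicates 14, 17, 19 and 20, and 783 without no-tamoxifen replicate 11. Members past the threshold were 1, Bmp4, without the filter and with the title period, and 0 in the other settings. Smad5 turned to 0.00723 with the title period, 0.0249 in the earlier and 0.00343 in the later titles. Within the earlier titles Id2 was 0.0284, Id3 -0.0741 and Kcnb2 0.35, and within the later Id1 was 0.13. Leaving out 1 tumour gave -0.0490 to 0.0353 for Id1, -0.114 to 0.0133 for Id2 and -0.0501 to 0.0353 for Smad5. The cause of these turns was not tested. Relations past the threshold numbered 5 to 7 between members and 28 to 32 with marker scores over the settings. The depth of the Lazy Piggy libraries limits Bmp2 and Bmp4 most.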

Other observations

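The library without a treatment label also lay outside the labelled Lazy Piggy tumours for other genes of the pathway. Bmpr1a (98.2 CPM), Smad1 (37.9 CPM) and Smad5 (51.9 CPM) were below all 59 labelled tumours, as were the partner Smad4 (74.8 CPM) and the bHLH factor Tcf12 (50.9 CPM). Id4 (113 CPM) was above all 59. Bmp4 (0.637 CPM), Bmp7 (8.60 CPM), Id1 (13.2 CPM), Id2 (177 CPM) and Id3 (17.8 CPM) lay within the range of the labelled tumours.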
